A study of Rattus norvegicus with 3 samples.

Results

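Cytotoxic T and NK cells were taken as the barcodes that carried both T or NK lineage transcripts and a cytotoxic transcript, and 464 of 41236 kept cells met that rule. A kept cell had at least 500 UMIs (unique molecular identifiers, 1 per captured transcript), at least 300 genes and at most 20% mitochondrial UMIs. A member had a UMI of at least 2 of the 7 genes Cd3e, Cd3d, Cd3g, Cd2, Cd247, Lck and Skap1 and at least 1 UMI of Prf1, Gzmm or Klrd1. It had no UMI of Csf1r, C1qa, Csf3r or Pdgfra, which mark macrophages, neutrophils and fibroblasts. The untreated library held 44 members, the hydrogel library 259 and the CO hydrogel library 161.

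The libraries came from full-thickness skin wounds of male wild type SD (Sprague-Dawley) rats of 8 to 10 weeks, made diabetic with 65 mg/kg streptozotocin, a beta cell toxin, and used if blood glucose was over 16.7 mM. The wounds, 15 mm wide, got no treatment (untreated), a hyaluronic acid hydrogel (hydrogel) or a CO-releasing one (CO hydrogel), where CO is carbon monoxide. Skin was taken at 7 days of hydrogel treatment, and the labels give no other day for the untreated wound. All 3 groups were diabetic, none was an unwounded skin, and the labels do not give the number of rats in a library. Each group was 1 library, so no difference between groups has a replicate check, no test was made and no p-value is given. All intervals are at 95% and reflect counting error alone.

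Cytotoxic lymphocytes kill target cells by releasing granules that hold perforin, a pore-forming protein, and granzymes, proteases that enter through the pore. CD8 T cells and NK cells share this machinery. T cells recognise targets through the T cell receptor with its CD3 chains, whereas NK cells lack surface CD3 and use receptors of the Klr and Ncr families that signal through adaptors such as Tyrobp (DAP12) and Fcer1g. In rats NK cells can also carry the CD8 alpha chain, so Cd8a alone does not mark a T cell.

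The deposited matrices held 12883 to 15442 barcodes and 78233883 to 109718517 UMIs per library. Median UMIs per member were 5240.5 (untreated), 4046 (hydrogel) and 2467 (CO hydrogel), against 2655, 5622.5 and 5820 for all kept cells. The members of the CO hydrogel wound were thus the shallowest, and levels are given as CPM, the UMIs of a gene over all UMIs of the summed members, scaled as counts per 1000000. Barcode sequences were shared between libraries for 345 to 581 kept cells per pair of libraries, but only 1 barcode was a member in both of a pair. Leaving out all shared barcodes left each share, CD3-negative fraction and gene count given for the members within the limits set for an unchanged value.

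Members at the edge of the rule were fewest in the hydrogel library by their cytotoxic UMIs. A single cytotoxic UMI was held by 34.1% of untreated members, 15.8% of hydrogel members and 34.2% of members from the CO hydrogel wound. Exactly 2 of the T genes were seen in 12, 80 and 56 members. Just outside the rule, 4, 50 and 47 cells had a cytotoxic UMI but only 1 T gene. A further 8, 125 and 64 cells met the T and cytotoxic criteria but carried a UMI of an excluded gene, and 5, 73 and 37 of these carried a single such UMI.

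The label was met by most, but not all, members. Nkg7, a granule membrane protein, and Ccl5, the chemokine RANTES, are markers of cytotoxic lymphocytes that the rule did not use. A UMI of Nkg7 or Ccl5 was present in 22 of 44 untreated members, in 188 of 259 from the hydrogel wound, and in 88 of 161 from the CO hydrogel wound. The 166 members without either had Gzmk, a granzyme found in 250 members, in only 2 cells. In other classes of cells (neutrophils, Csf1r or C1qa cells, Pdgfra cells), the share of cells with a UMI reached at most 2.37% for Prf1, 1.98% for Gzmm, 1.48% for Klrd1, 2.80% for Nkg7 and 6.21% for Ccl5, at median depths of 2268 to 17951 UMIs. Members had Nkg7 in 47.7% (untreated), 72.2% (hydrogel) and 49.1% (CO hydrogel) of cells, and in 44.2%, 56.6% and 35.9% after each cell was thinned to 1000 UMIs. For Ccl5 the shares were 47.7%, 68.7% and 48.4%, and 44.2%, 67.4% and 46.2% after thinning. Thinning left out 1, 1 and 5 shallower members. These shares were many times the level seen in cells that should lack the transcripts.

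Splitting the members by CD3 separated the granule-rich cells from a mixed T cell group. CD3-positive members had a UMI of Cd3e, Cd3d or Cd3g, and CD3-negative members had none and entered through Cd2, Cd247, Lck and Skap1. Of the 230 CD3-negative members, 228 had Nkg7 or Ccl5, against 70 of the 234 CD3-positive members. Dividing the CD3-positive members by Nkg7 or Ccl5, a division chosen after the values were seen, gave 3 classes with distinct genes, and Nkg7 and Ccl5 themselves are not read between them.

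**Figure D1:**
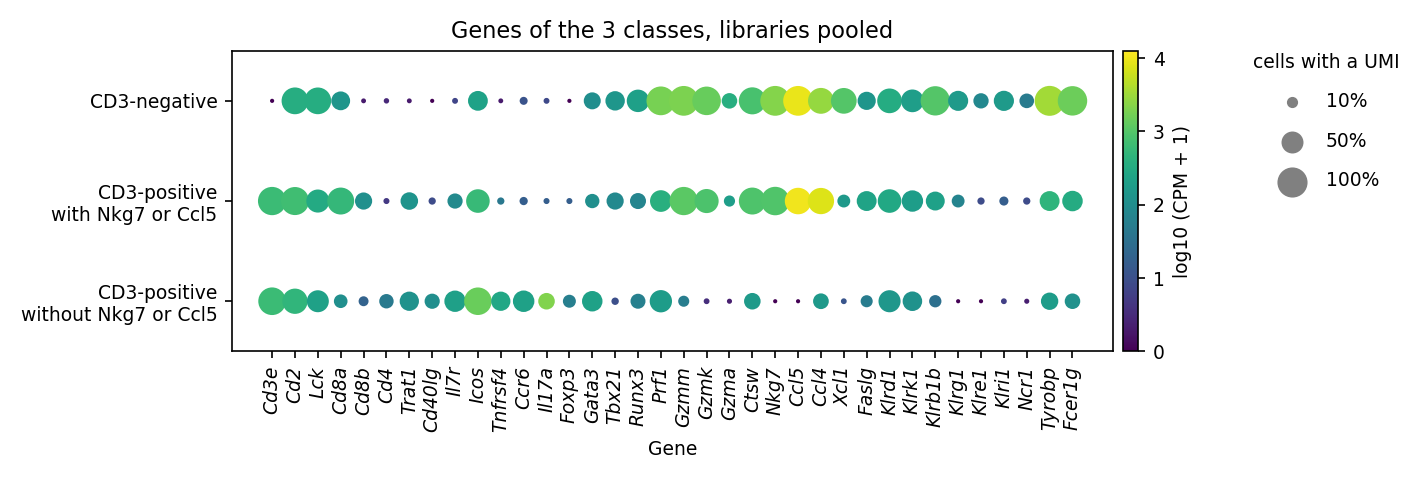
Dot plot of 36 genes (x axis) in the 3 classes of members (y axis), with the 3 libraries pooled; dot area is the percentage of cells with a UMI and colour is log10 (CPM + 1). Granule and NK receptor genes fill the top row, Cd8b sits with CD3 in the middle row, and Il17a, Ccr6 and Tnfrsf4 in the bottom row.

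CD3-negative members carried the granule and NK receptor genes together. Pooled over libraries, Gzmk was at 1426 CPM and seen in 205 of 230 cells, and Ctsw, the cathepsin W of cytotoxic granules, at 803 CPM in 182 cells. Tyrobp stood at 3404 CPM in 227 cells and Klrb1b, an inhibitory NK receptor, at 1023 CPM in 217 cells. Xcl1, the chemokine that attracts cross-presenting dendritic cells, was seen in 163 cells. Ncr1 (NKp46), the natural cytotoxicity receptor used to define NK cells, was detected in 45, and Klrg1, a receptor of mature NK and effector T cells, in 94. T cell genes outside the CD3 complex were uneven in these cells. Trat1, a T cell receptor adaptor, was seen in 1 cell, Il7r, the interleukin-7 receptor, in 3 and Cd40lg, the helper T cell ligand, in 0. The signalling genes Zap70 and Lat were seen in 105 and 77 cells, the costimulatory receptors Cd27 and Icos in 82 and 91, and Lck and Cd2, which the rule used, in 177 and 178. Cd8a was seen in 81 of the 230 cells and Cd8b in 1.

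CD3-positive members with Nkg7 or Ccl5 joined the granule genes to a T cell profile. Gzmk was at 861 CPM in 43 of 70 cells, Gzmm, another granzyme, at 1117 CPM in 61 cells and Ccl4, the chemokine MIP-1 beta, at 7706 CPM in 52. The CD8 co-receptor genes were most frequent here, with Cd8a in 55 cells and Cd8b in 20. Tyrobp was seen in 28 of the 70 cells at 463 CPM and Xcl1 in 10.

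The 164 CD3-positive members without Nkg7 or Ccl5 went against the label. Their Prf1 level was 177 CPM in 85 cells and their Klrd1 level, the CD94 chain of NKG2 receptors, 147 CPM in 83 cells, and these 2 genes brought most of them in. Gzmk was seen in 2 of the 164 cells and Gzma, granzyme A, in 1. They carried Il17a at 2097 CPM in 43 cells and Ccr6, the chemokine receptor of interleukin-17 producing T cells, in 78. Cd4 was seen in 31, Foxp3, the regulatory T cell factor, in 24 and Icos, a costimulatory receptor, in 135 at 1479 CPM. Of all members with an Il17a UMI, 44 were CD3-positive and 29 had Klrd1. Of all 25 members with a Foxp3 UMI, 24 had Prf1 and 24 lacked Nkg7 and Ccl5. These cells are not called cytotoxic here.

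Members were most frequent in the hydrogel wound. Of the 3 classes, only the CD3-negative one had intervals that lay apart between the 2 hydrogel libraries. Of kept cells, members made up 0.368% untreated (0.267 to 0.493), 1.81% with hydrogel (1.59 to 2.04) and 1.08% with CO hydrogel (0.919 to 1.26). The hydrogel share came to 4.91 times the untreated one, and the ratio of CO hydrogel to hydrogel shares to 0.598. Neutrophils took up far more of the untreated library: 8193 of its kept cells had at least 2 of 5 neutrophil genes. Outside those cells the member share was 1.06% in the untreated wound (0.759 to 1.44). It was 2.60% under the hydrogel (2.29 to 2.94) and 1.16% under the CO hydrogel (0.989 to 1.35). On this denominator the untreated and CO hydrogel intervals overlapped, and only the hydrogel library stood above both. Reading the rule after thinning every barcode to 1000 UMIs gave 0.0705%, 0.652% and 0.499%, so the order held but the gap between the 2 hydrogel libraries narrowed. Where the gene exclusion was dropped the shares were 0.435%, 2.68% and 1.51%.

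**Figure D2:**
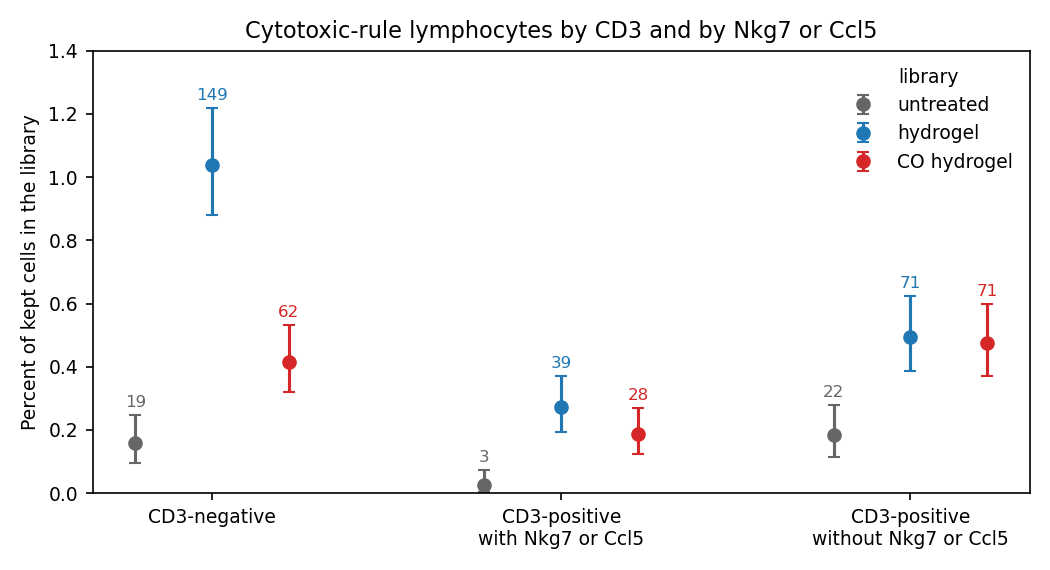
Percentage of kept cells (y axis) in each class of members (x axis) for the 3 libraries, with exact binomial 95% intervals and the number of cells above each point. The CD3-negative class shows the widest spread between libraries, from 0.159% untreated to 1.04% hydrogel, while CD3-positive cells without Nkg7 or Ccl5 are at 0.495% and 0.476% in the hydrogel and CO hydrogel libraries. The kept cells include neutrophils, 8193 of them in the untreated library and 1047 in the CO hydrogel one.

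The difference between the 2 hydrogel libraries lay mainly in the CD3-negative members. Their share of kept cells was 0.159% untreated (0.0956 to 0.248), 1.04% with hydrogel (0.879 to 1.22) and 0.415% with CO hydrogel (0.319 to 0.532). The ratio of CO hydrogel to hydrogel shares was 0.400 for CD3-negative and 0.865 for CD3-positive members. CD3-positive members were at 0.209%, 0.767% and 0.663%, and the hydrogel and CO hydrogel intervals (0.631 to 0.923 and 0.539 to 0.807) overlapped. All these shares are of kept cells, which included 8193 neutrophils untreated, 4687 with hydrogel and 1047 with CO hydrogel. Shares of the CD3 groups outside the neutrophils are not given, so their untreated values are not corrected for this. For all members the CO hydrogel to untreated ratio of shares was 2.93 among kept cells but 1.09 outside neutrophils. Among members, the CD3-negative fraction was 43.2% (28.3 to 59.0), 57.5% (51.3 to 63.6) and 38.5% (31.0 to 46.5). After thinning to 1000 UMIs, a CD3 UMI was found in 44.2%, 35.3% and 48.1% of members, so the hydrogel value was again the lowest, within the interval of the untreated one (29.1 to 60.1).

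Some genes of the granule list were scarce in CD3-positive members of the untreated wound, and others were not. Of that list, Ctsw and Srgn were at 417 and 1052 CPM in these members, against 210 and 796 CPM in those of the CO hydrogel wound. Among CD3-positive members, Nkg7 or Ccl5 was found in 3 of 25 cells untreated (12.0%, 2.55 to 31.2), 39 of 110 hydrogel (35.5%, 26.6 to 45.1) and 28 of 99 CO hydrogel (28.3%, 19.7 to 38.2), and these intervals overlap. The 25 untreated CD3-positive members had 0 UMIs of Gzmk, those of the hydrogel wound 222 CPM and those of the CO hydrogel wound 288 CPM. Set against 3 counts in place of 0, Gzmk was 10.8-fold higher with hydrogel and 14.1-fold higher with CO hydrogel. For CO hydrogel to untreated the exact lower limit of its log2 ratio was 3.49. Ccl4 followed the same order of untreated against hydrogel, with 3 UMIs (20.5 CPM) untreated and 3243 CPM in the hydrogel CD3-positive members, a log2 ratio of 7.31 (5.76 to 9.58). In the CO hydrogel library Ccl4 was at 676 CPM, between the other two.

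Transcripts of other cell types in the members differed between libraries. The summed CPM of 6 fibroblast genes was 827 untreated, 1736 hydrogel and 4880 CO hydrogel, and a UMI of Col1a1, collagen I, was in 70.5%, 84.2% and 90.1% of members. That of 7 neutrophil genes was 1095, 713 and 88.8, and of 10 macrophage genes 226, 547 and 351. Pdgfra, Csf1r, C1qa and Csf3r were at 0 by the rule. B or plasma cell genes summed to at most 2.25 CPM and mast cell genes to at most 18.2 CPM. Cdh5, Plvap, Kdr and Emcn of endothelium were at 0 in the untreated members and summed to 96.9 and 157 CPM in the others. Each gene list was therefore also read without its genes that were over 3 times higher in another class of cells. For CO hydrogel to hydrogel the medians were then -0.73 for granule, -0.75 for NK receptor and -1.22 for proliferation genes. The stress, interferon, antioxidant and glycolysis lists are given both ways.

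Between the CO hydrogel and hydrogel members, 4211 genes had at least 50 UMIs, of which 86 (2.04%) were at least 2-fold higher and 187 (4.44%) at least 2-fold lower in the CO hydrogel library. At the limit of 20 UMIs used for gene lists, the shares past 2-fold were 3.69% higher and 7.55% lower, and the median log2 ratio of all genes was -0.07. The granule, NK receptor, cytokine and proliferation lists had medians below that of all genes in the CO hydrogel members. Of 11 cytotoxic granule genes measured, 5 were at least 2-fold lower, 0 at least 2-fold higher and all 11 were below 0, with a median of -0.73. Prf1 and Gzmm, which the rule used, are on this list, and without them 4 of 9 were at least 2-fold lower, with a median of -0.73. Of 16 NK receptor and adaptor genes, 7 were at least 2-fold lower and 0 higher, with a median of -0.75. Without Klrd1, which the rule used, it was 7 of 15, with a median of -0.82. Among 18 T cell receptor and signalling genes 2 were at least 2-fold higher and 0 lower, with a median of 0.23. This list holds the T genes of the rule. Without them 2 of 11 were at least 2-fold higher, 7 were above 0 and 4 below, with a median of 0.16. Since the CD3-negative fraction also differed between these libraries, each list was read again within CD3-negative and within CD3-positive members.

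**Figure D3:**
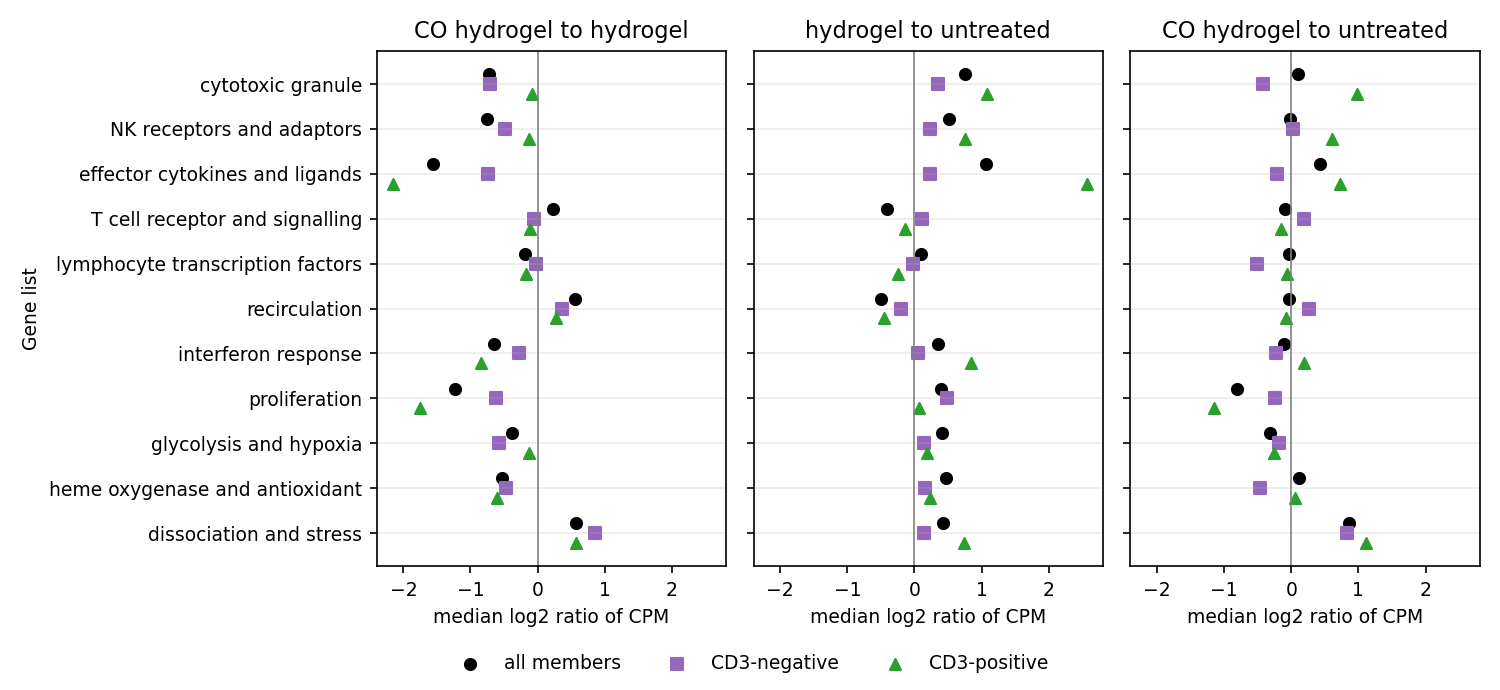
Median log2 ratio of CPM (x axis) over the measured genes of 11 lists (y axis) for the 3 pairs of libraries, in all members and in CD3-negative and CD3-positive members; a gene at 0 in 1 library is set at the limit of 3 counts. For CO hydrogel to hydrogel the granule median is -0.71 in CD3-negative and -0.08 in CD3-positive members, and the proliferation median is below 0 in both.

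Within CD3-negative members, the granule list stayed lower in the CO hydrogel library, through some of its genes and not others. There 4 of 11 granule genes were at least 2-fold lower and 0 higher, with a median of -0.71, beside 10.9% of 4838 genes at least 2-fold lower, 4.26% at least 2-fold higher and a median of -0.08. Without Prf1 and Gzmm it was 3 of 9, with a median of -0.71. Prf1, perforin, was at 735 CPM untreated (574 to 927), 2204 hydrogel (2099 to 2314) and 861 CO hydrogel (724 to 1016). The hydrogel CD3-negative members thus stood alone, with Prf1 seen in 144 of 149 cells, and the CO hydrogel and untreated intervals overlapped. For CO hydrogel to hydrogel this is a log2 ratio of -1.36 (-1.62 to -1.11). Gzma was at 104, 486 and 36.9 CPM, with a UMI in 4 of 19, 42 of 149 and 6 of 62 cells, which gives -3.72 (-5.18 to -2.58) for that ratio. The rule required a UMI of Prf1, Gzmm or Klrd1, so the levels of those 3 genes are a description of cells chosen by them.

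Gzmm and Gzmk of the CD3-negative members differed little between the 2 hydrogel libraries, whereas Gzmbl2 and Gzmf were lower in the CO hydrogel one. Gzmm was at 1573 (untreated), 2044 (hydrogel) and 1919 CPM (CO hydrogel), with a CO hydrogel to hydrogel log2 ratio of -0.09 (-0.27 to 0.09). Gzmk was at 2101, 1347 and 1384 CPM, highest in the untreated members, and that ratio was 0.04 (-0.18 to 0.25). Both intervals lie within 2-fold, but they reflect counting error alone and do not cover differences between cells or animals. Gzmbl2, a granzyme B-like gene, was at 104, 562 and 258 CPM. Gzmf, another granzyme, was at 51.7, 66.1 and 18.4 CPM, on 5, 49 and 3 UMIs. Its CO hydrogel to hydrogel log2 ratio was -1.84 (-4.17 to -0.21). Gzmb itself had 0, 0 and 2 UMIs in all members of the 3 libraries, and since granzyme B-like genes and Gzmf are near-identical copies, their split into single genes is uncertain. Serpinb9, the granzyme B inhibitor that protects killer cells from their own granules, was at 51.7, 199.8 and 73.8 CPM.

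**Figure D4:**
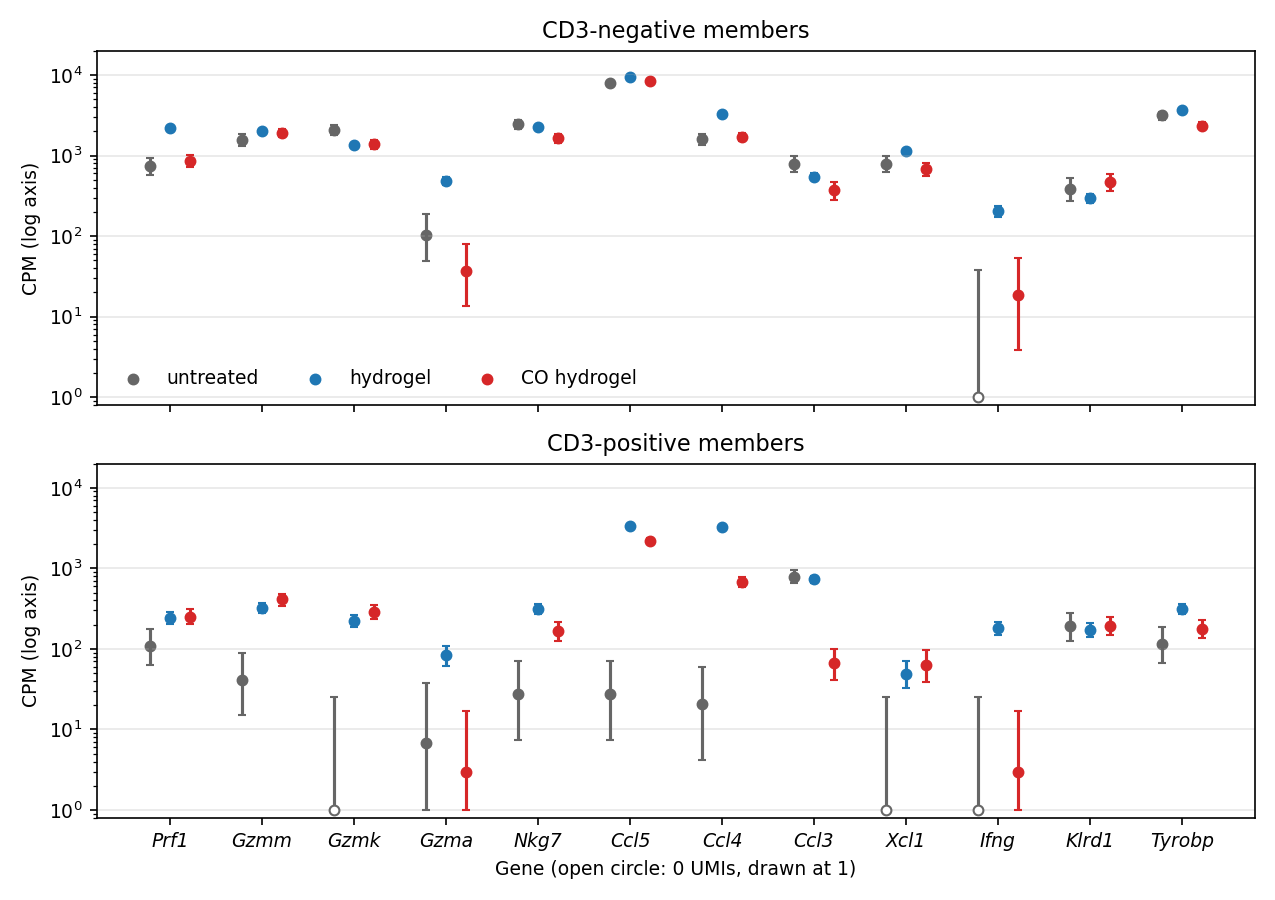
CPM (y axis, log scale) of 12 genes (x axis) in CD3-negative members (top) and CD3-positive members (bottom) of the 3 libraries, with exact Poisson 95% intervals; open circles mark 0 UMIs. Prf1 and Gzma stand above both other libraries in hydrogel CD3-negative members, and Gzmk, Xcl1 and Ifng are at 0 in untreated CD3-positive members. Prf1, Gzmm and Klrd1 are genes of the rule, so their levels describe cells chosen by them.

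NK receptors of the CD3-negative members did not all go one way. Of 16 receptors and adaptors, 3 were at least 2-fold lower in the CO hydrogel than in the hydrogel library and 0 higher, beside 10.9% and 4.26% of all genes, with a median of -0.49. Without Klrd1, which the rule used, 3 of 15 were at least 2-fold lower and 4 were above 0, with a median of -0.54. The lower ones were Klrc1, an NKG2 chain that pairs with CD94, Ncr1, and Klrb1c, an NK receptor. Klrb1c was at 43.0 CPM against 124 in the hydrogel library (-1.53, -2.88 to -0.43), whereas Klrc1 rested on 1 UMI against 27 (-2.57, -7.92 to 0.03) and Ncr1 on 4 against 42 (-1.20, -3.15 to 0.26), and both of these intervals include 0. Klrc2, another NKG2 chain, was at 67.6 against 135 CPM. Klrd1, the partner of these chains, was at 296 and 467 CPM (0.66, 0.26 to 1.04), but this describes cells chosen in part by that gene. Klrb1b at 990 and 1138 CPM differed by no more than counting error (0.20, -0.04 to 0.44). Tyrobp, the adaptor, was at 3146, 3668 and 2355 CPM in the untreated, hydrogel and CO hydrogel CD3-negative members. Tyrobp and Fcer1g are also abundant in myeloid cells, where up to 97.0% and 96.0% of cells had a UMI.

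Within CD3-positive members the granule list had few genes past 2-fold between the 2 hydrogel libraries. Of 10 measured genes, 1 was at least 2-fold lower and 0 higher in the CO hydrogel members, with a median of -0.08, beside 6.36% of 4779 genes at least 2-fold lower and 3.87% at least 2-fold higher and a median of -0.07. Without Prf1 and Gzmm it was 1 of 8, with a median of -0.25. Prf1 was at 109 CPM untreated, 244 hydrogel and 252 CO hydrogel. The gene that differed was Gzma, with 49 UMIs in 6 of 110 hydrogel cells, of which 38.8% were in 1 cell, and 1 UMI in the CO hydrogel cells, a log2 ratio of -4.79 (-10.12 to -2.24). Gzmm, at 41.0, 323 and 412 CPM, was lowest in the untreated members, where 2 of 25 cells had a UMI.

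Cytokine and chemokine genes were mostly lower in the CO hydrogel than in the hydrogel members. Of 11 measured in all members, 8 were at least 2-fold lower and 0 higher, beside 7.55% and 3.69% of all genes. The median was -1.56. Ifng, interferon gamma, the main macrophage-activating cytokine of these cells, had 0 UMIs in 44 untreated members, 258 UMIs in 26 of 259 hydrogel members and 4 UMIs in 3 of 161 CO hydrogel members. It was 24.0-fold lower in the CO hydrogel than in the hydrogel members, a log2 ratio of -4.59 (-6.47 to -3.21). With 3 counts in place of the untreated 0, it was 15.7-fold higher in the hydrogel than in the untreated members. The exact lower limit of that log2 ratio was 3.66. A single hydrogel cell held 22.1% of the hydrogel Ifng UMIs. Without the top cell of each library the CO hydrogel to hydrogel log2 ratio was -5.23. Ifng came from both sides of the split, with 15 CD3-negative and 11 CD3-positive hydrogel cells, of which 25 of 29 over all libraries also had Gzmk.

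Chemokine levels did not share one order across the libraries. Ccl4 was at 646 CPM untreated, 3272 hydrogel and 1009 CO hydrogel in all members, and within CD3-negative members at 1594, 3295 and 1691. The CO hydrogel to hydrogel log2 ratio of Ccl4 was -0.96 (-1.15 to -0.78) in CD3-negative and -2.26 (-2.47 to -2.06) in CD3-positive members. Ccl3, MIP-1 alpha, did not follow it: its level was highest in the untreated members at 786 CPM, beside 629 hydrogel and 165 CO hydrogel. In untreated CD3-positive members 51.3% of Ccl3 UMIs were in 1 cell. Ccl5 in CD3-negative members was at 7959, 9366 and 8511 CPM, a range of less than 2-fold. Xcl1 in the same cells was at 787, 1127 and 676 CPM, with a CO hydrogel to hydrogel log2 ratio of -0.74 (-1.04 to -0.45).

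Il17a and Il17f, the interleukin-17 cytokines that recruit neutrophils, were seen mostly in members without Nkg7 or Ccl5. Of the 47 members with Il17a, 43 lacked both, but 26 had Prf1. Il17a was at 222 CPM untreated, 1102 hydrogel and 373 CO hydrogel, with a UMI in 3, 29 and 15 members. In the untreated library 94.4% of its UMIs were in 1 cell, and in the hydrogel library the top cell held 401 of 1468. Within CD3-positive members the share of cells with a UMI was 12.0%, 23.6% and 15.2%. The T-gene cells without a cytotoxic UMI held Il17a too, at 627, 1449 and 634 CPM. Ccl1, a chemokine for Ccr8-bearing cells, was at 107, 462 and 56.5 CPM in 3, 39 and 3 members. In the CO hydrogel library 71.4% of its 28 UMIs were in 1 cell. Its CO hydrogel to hydrogel log2 ratio was -2.75 (-3.47 to -2.11) in CD3-negative members, on 20 against 613 UMIs. The ratio in CD3-positive members was 2.83 (0.50 to 6.10), on only 8 against 2 UMIs.

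Proliferation genes were mostly lower in the CO hydrogel than in the hydrogel members. Of 16 measured, 11 were at least 2-fold lower and 0 higher, beside 7.55% and 3.69% of all genes, with a median of -1.22. Mki67, a marker of cycling cells, was at 218 CPM untreated, 271 hydrogel and 123 CO hydrogel, in 6 of 44, 43 of 259 and 16 of 161 members, and these shares were 9.30%, 8.53% and 5.13% after thinning to 1000 UMIs, with overlapping intervals. Top2a, the topoisomerase of replicating cells, was at 140, 198 and 80.7 CPM. The median was -0.62 in CD3-negative and -1.76 in CD3-positive members, where 3 of 13 and 9 of 12 measured genes were at least 2-fold lower, beside 10.9% and 6.36% of all genes. Against the untreated members, 3 of 8 measured proliferation genes were at least 2-fold lower in the CO hydrogel members and 0 higher, beside 3.68% and 8.83% of all genes, with a median of -0.81.

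Interferon-induced genes did not all go the same way. For CO hydrogel to hydrogel, 6 of 20 measured were at least 2-fold lower and 0 higher, beside 7.55% and 3.69% of all genes. The median was -0.65. Without the genes over 3 times higher in another class 2 of 13 were lower, with a median of -0.42. The guanylate-binding proteins Gbp2 and Gbp5, classical targets of interferon gamma, were lower in both CD3 groups, at log2 ratios of -1.57 and -1.63 in CD3-negative and -1.38 and -0.96 in CD3-positive members. Isg15, a target of type I interferon, was at 185 CPM untreated, 237 hydrogel and 98.9 CO hydrogel, but 60.1% of its UMIs in hydrogel CD3-positive members were in 1 cell. Mx1, an antiviral gene of the same type, was at 98.8, 135 and 155 CPM and Ifi27 was higher in the CO hydrogel than in the hydrogel members, at a log2 ratio of 0.44.

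Genes of heme breakdown and antioxidant defence are of interest because heme oxygenase releases carbon monoxide. For CO hydrogel to hydrogel, 3 of 16 measured were at least 2-fold lower and 1 higher, beside 7.55% and 3.69% of all genes. The median was -0.53. Of the 7 not over 3 times higher in another class, 1 was lower and 0 higher, with a median of -0.45. Hmox1, heme oxygenase 1, was at 136 CPM untreated, 188 hydrogel and 62.6 CO hydrogel. A single hydrogel CD3-positive cell held 132 of its 250 UMIs, and a single untreated CD3-negative cell 24 of 33. In CD3-negative members Hmox1 was at 95.8 CPM in the hydrogel and 92.2 CPM in the CO hydrogel library. Sod2, mitochondrial superoxide dismutase, was at -1.11 in all members, -1.32 in CD3-negative and -1.11 in CD3-positive members. Glycolysis and hypoxia genes were lower in 14 of 17, with a median of -0.39. At least 2-fold lower were 4 and higher 0, beside 7.55% and 3.69% of all genes. Of the 13 not over 3 times higher in another class, 2 were at least 2-fold lower and 0 higher, with a median of -0.39. Slc2a1, the glucose transporter, was at 69.8 CPM hydrogel and 26.2 CPM CO hydrogel.

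Immediate early and stress genes had a median above 0 for CO hydrogel to hydrogel, which was smaller without the genes that stood higher in other cell types. Of 16 measured, 4 were at least 2-fold higher and 0 lower, beside 3.69% and 7.55% of all genes, with a median of 0.57. Of the 7 not over 3 times higher in another class, 1 was at least 2-fold higher, with a median of 0.22. The recirculation list also had a median above 0, at 0.56, but 0 of its 7 genes were past 2-fold. Jun was at 70.0 CPM untreated, 175 hydrogel and 432 CO hydrogel, and Fos at 119, 301 and 521. In CD3-negative members 6 of 16 were at least 2-fold higher, beside 4.26% of all genes, with a median of 0.85. That count still included the genes over 3 times higher in another class. Dnajb1, a heat shock co-chaperone, was at 104, 58.0 and 258 CPM in CD3-negative members. However, 1 CO hydrogel cell held 33.3% of the Dnajb1 UMIs of all CO hydrogel members. Such genes respond to enzymatic dissociation at 37 °C, which all 3 wounds went through, and the part of tissue handling was not tested.

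Transcription factors and receptors of T cells were higher in the CO hydrogel members in a few cases. Foxp3 was at 37.0 CPM untreated, 12.0 hydrogel and 48.4 CO hydrogel, with a UMI in 2, 10 and 13 members, and its CO hydrogel to hydrogel log2 ratio of 2.01 was 1.41 (0.44 to 2.42) within CD3-positive members. Id3, a factor of less differentiated lymphocytes, was at 12.3, 15.8 and 78.7 CPM, with 18 of the 39 CO hydrogel UMIs in 1 cell. Trat1 was at 94.7, 32.3 and 129 CPM, and its CO hydrogel to hydrogel ratio was 1.38 (0.80 to 1.97) within CD3-positive members. Tbx21 (T-bet), the factor that drives Ifng, was at 57.6, 97.6 and 48.4 CPM, and its ratio of -1.01 in all members was -0.70 (-1.58 to 0.08) in CD3-negative members. Bhlhe40, a cofactor of cytokine production, was lower in both CD3 groups, at -0.84 and -0.71. Of 14 factors measured 2 were at least 2-fold higher and 2 lower, beside 3.69% and 7.55% of all genes, with a median of -0.19.

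The other genes with the widest CO hydrogel to hydrogel ratios were in part carried by single cells. Sema6d, a semaphorin, was at 86.4 and 14.1 CPM in 58 of 259 hydrogel and 4 of 161 CO hydrogel members, and Itga1, the collagen-binding integrin CD49a of tissue-resident NK and T cells, at 50.3 and 12.1 CPM in 40 and 5 members. Ada, adenosine deaminase, was at 49.6 and 10.1 CPM in 52 and 5, and Epb41l2 at 48.1 and 8.07 CPM in 54 and 4. Ubd, an interferon-induced ubiquitin-like modifier, was at 80.4 and 12.1 CPM. The hydrogel UMIs of these genes were spread over 24 or more cells each. The MHC class II genes RT1-Da and RT1-Ba were higher there, at ratios of 1.69 and 1.54, but 77.6% and 68.9% of their CO hydrogel UMIs were in 1 cell, and the ratios were -0.11 and 0.03 without the top cell of each library. Prnp (1.58), Hsd11b1 (1.37), Dapp1 (1.31), Pja1 (1.28), Ahctf1 (1.32) and Gm2a (1.37) made up the rest of the highest ratios.

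Cytokine genes were mostly higher in hydrogel than in untreated members, and granule genes less than 2-fold apart for the most part. The 3 pairs of libraries share libraries with each other, so their ratios are not independent. Of 3788 genes 297 (7.84%) were at least 2-fold higher and 41 (1.08%) lower in the hydrogel members, and 13.5% and 3.04% with at least 20 UMIs, with a median log2 ratio of 0.13. Of 11 granule genes 3 were at least 2-fold higher, 0 lower and all 11 above 0, with a median of 0.75, and without Prf1 and Gzmm 2 of 9, with a median of 0.48. Of 12 cytokine genes 8 were at least 2-fold higher and 1 lower, with a median of 1.60, or 1.06 with genes at 0 in 1 library set at the limit of 3 counts. Within CD3-negative members the granule median was 0.35, beside 0.18 for all genes, and 3 of 11 were at least 2-fold higher and 0 lower, beside 16.7% and 3.75% of all genes. Without Prf1 and Gzmm this was 2 of 9, with a median of 0.20. Within CD3-positive members the granule median was 1.09, beside 0.09 for all genes, and 6 of 10 were at least 2-fold higher and 0 lower, beside 12.3% and 3.75%, and without Prf1 and Gzmm 4 of 8, with a median of 0.85. The untreated library had 44 members, so these ratios rest on few cells.

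Tnfsf8 (CD30 ligand), a T cell cytokine of the TNF family, had the lowest ratio to untreated among the genes with at least 50 UMIs that the naming rule admits, in both hydrogel libraries. It was at 354 CPM in 8 of 44 untreated members, 23.3 in 11 of 259 hydrogel and 28.3 in 8 of 161 CO hydrogel members, and 55.8% of the untreated UMIs were in 1 cell. Without the top cells its log2 ratio to untreated was -3.15 with hydrogel and -2.98 with CO hydrogel. Cited2, a transcriptional coregulator of hypoxia responses, was at 831, 244 and 256 CPM in 30, 116 and 65 members, with log2 ratios to untreated of -1.78 and -2.10 in CD3-positive members and -0.20 and 0.06 in CD3-negative members. Bcl2, the survival factor, was at 74.1, 28.5 and 30.3 CPM. Tpmt, Rgs19 and Ngly1 were among the genes lower in hydrogel than in untreated members, at ratios of -1.87, -1.80 and -1.63, as was Sit1, a T cell receptor regulator, at -1.52. Cck, Cdk5rap2, Dctpp1, Idh3b and Mmd were higher, each with only 1 or 2 untreated cells behind the ratio.

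Between CO hydrogel and untreated members, granule genes differed by CD3 group. Past 2-fold were 86 genes higher (4.23% of 2031) and 37 lower (1.82%) in the CO hydrogel members at 50 UMIs, and 8.83% and 3.68% of genes at 20 UMIs. In all members 0 of 9 measured granule genes were 2-fold apart, with a median of 0.10 that was -0.37 without Prf1 and Gzmm. Of 12 NK receptor genes 1 was lower, with a median of -0.02, and without Klrd1 it was 1 of 11, with a median of -0.03. In CD3-negative members 0 of 8 granule genes were 2-fold apart, with a median of -0.42 (-0.55 without Prf1 and Gzmm), beside 9.28% of all genes higher and 5.02% lower. In CD3-positive members 4 of 9 granule genes were at least 2-fold higher and 0 lower, with a median of 0.98, beside 9.54% and 4.97%. Prf1 and Gzmm were among the 4, and without them 2 of 7 were at least 2-fold higher, with a median of 0.61. The 25 untreated CD3-positive members had few UMIs of some granule genes to set this against, such as 6 of Gzmm and 0 of Gzmk. Ctsw and Srgn went the other way in CD3-positive members, at log2 ratios of -0.99 and -0.40. Of 16 stress genes 7 were at least 2-fold higher and 0 lower, with a median of 0.87, and 1 of the 7 not over 3 times higher in another class, with a median of 0.28. Ifitm1, an interferon-induced membrane protein, was at 4264, 4300 and 1471 CPM in the untreated, hydrogel and CO hydrogel members, in 41, 246 and 133 cells, so it was lower in the CO hydrogel library than in either other. Gbp5 was at 255, 247 and 98.9 CPM, and against untreated it was lower in CD3-negative (-2.54) but not in CD3-positive members (0.58). Ly49i4, an NK receptor of the Ly49 family, was at 37.0, 156 and 155 CPM, and Nr4a3, an activation-induced nuclear receptor, at 82.3, 198 and 274 CPM.

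Within each library, CD3-negative and CD3-positive members were compared over 4514 genes, of which 155 (3.43%) were at least 2-fold higher and 86 (1.91%) at least 2-fold lower in CD3-negative members in all 3 libraries. Of 16 NK receptor genes 11 were at least 2-fold higher in all 3 and 0 lower, and of 11 granule genes 7 were higher and 0 lower. Klrd1 belongs to the first list and Prf1 and Gzmm to the second. The rule used these genes, and no counts without them are given for this comparison. Of 16 T cell receptor and signalling genes, which include those that made the split, 8 were lower and 0 higher. Beyond these lists, CD3-negative members had Dsc2, the desmosomal cadherin desmocollin 2, at 72.4, 95.8 and 86.1 CPM against 0, 1.69 and 0 in CD3-positive members, in the library order used above. Scin, the actin-severing protein scinderin, was at 82.8, 87.7 and 92.2 CPM against 0, 0 and 3.00. Itgax, the integrin CD11c, was at 72.4, 99.9 and 55.3 CPM against 0, 8.46 and 3.00. CD3-positive members had Adam19, a metalloprotease, at 738, 543 and 475 CPM against 0, 8.10 and 24.6, and Tnfrsf4 (OX40), a costimulatory receptor, at 321, 205 and 195 against 0, 1.35 and 0.

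The nearest other cells were 328 T-gene cells that met the same rule without a UMI of Prf1, Gzmm or Klrd1. Of all T-gene cells, members were 45.4% untreated (35.2 to 55.8), 64.8% with hydrogel (59.8 to 69.4) and 54.6% with CO hydrogel (48.7 to 60.4). Over 6331 genes, 105 (1.66%) were at least 2-fold higher and 90 (1.42%) lower in members in all 3 libraries. Nkg7 was at 996, 1386 and 650 CPM in members and 17.8, 8.69 and 10.9 CPM in the other T-gene cells. Gzmk was at 836, 848 and 648 CPM against 14.3, 1.09 and 19.6, and Klrg1 at 45.3, 97.6 and 80.7 CPM against 0 UMIs in all 3 libraries. Of 9 granule genes 6 and of 17 NK receptor genes 9 were at least 2-fold higher in members in all 3. Icos, Ccr6, Cd4, Il17a and Foxp3 were lower in members in all 3 libraries, with Foxp3 at 37.0, 12.0 and 48.4 CPM against 67.7, 91.2 and 93.4. Ifi30, a lysosomal reductase of antigen-presenting cells, was at 32.9, 77.4 and 111 CPM in members against 125, 698 and 823, and Cd80, a costimulatory ligand of such cells, at 8.23, 12.8 and 36.3 against 64.1, 48.9 and 97.8, so the other T-gene cells also held transcripts of antigen-presenting cells.

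**Figure D5:**
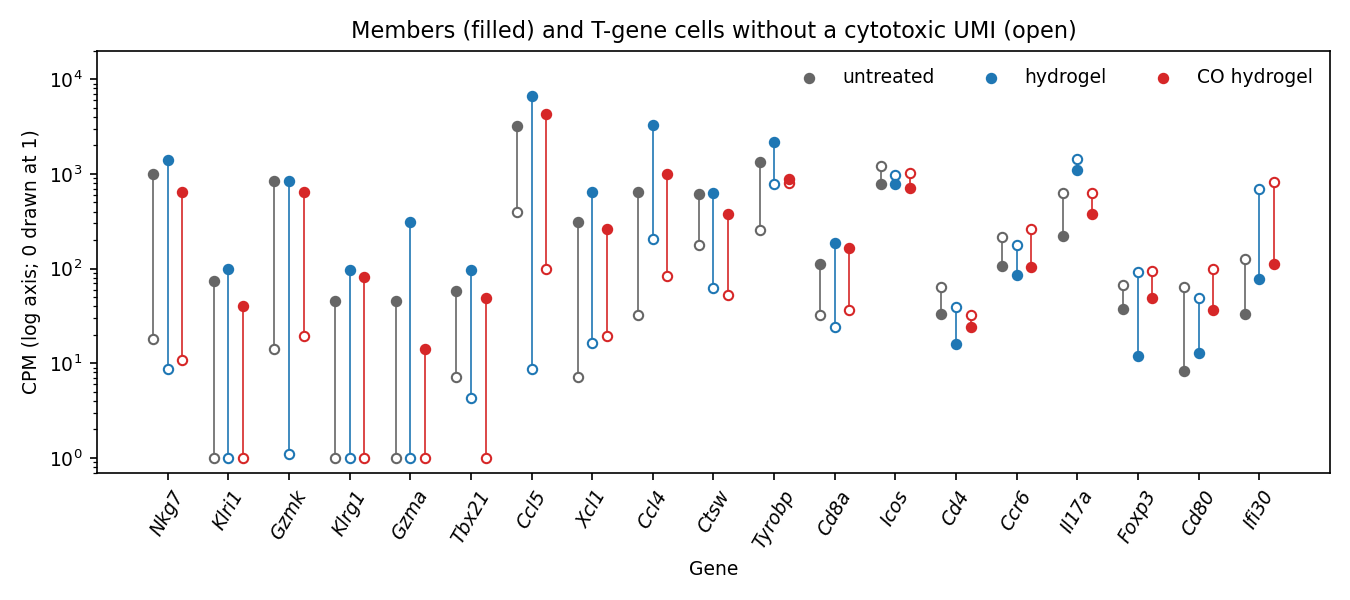
CPM (y axis, log scale, 0 drawn at 1) of 19 genes (x axis) in members (filled) and in T-gene cells without a UMI of Prf1, Gzmm or Klrd1 (open) of each library. Nkg7, Gzmk and Klrg1 lie far higher in members of all 3 libraries, and Icos, Ccr6, Il17a and Foxp3 lie lower.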

How the data were processed

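The authors' deposited matrices hold counts, UMIs per gene and barcode from 10x Genomics 3' libraries. Cell Ranger 6.0.1 made them, per the file headers. The submitters' processing notes list build rn6, DESeq 1.38.0, Seurat 4.2.0 and also Cell Ranger 7.0.0. Members, gene lists and comparisons were chosen with earlier results of these data known. UMIs of members were summed per library and scaled to CPM. Shares have exact Clopper-Pearson intervals, levels exact Poisson intervals and ratios exact conditional binomial intervals, the last checked on simulated counts. PCR duplicates are removed through UMIs, but the intervals do not cover differences between animals. Neutrophils were cells with at least 2 of Csf3r, Il1r2, Trem1, Cxcr2 and G0s2. Genes named outside the lists were the 10 highest and 10 lowest ratios among genes with a symbol, 50 or more UMIs and detection in 5% or more of the members of some library. Ribosomal, mitochondrial, immunoglobulin and hemoglobin genes were not eligible, nor were genes whose level in another class exceeded 3 times that of members. Within libraries they were the 10 in each direction with the largest smallest log2 ratio (0.5 counts added) over the 3 libraries. Classes by Nkg7 or Ccl5 were chosen after the values were seen. No doublets were removed. The alternatives included Scrublet (scanpy 1.11.5), a stricter filter, other thresholds of the rule, thinning, TMM factors (edgeR 4.0.16 in R 4.3.3) and the mean of per-cell CPM. Software was matplotlib 3.10.9, pandas 2.3.3, scipy 1.17.1 and numpy 2.4.6 under Python 3.11.15. Among the listed symbols, Fasl, Ccr2, Stat4 and the T cell receptor constant genes were not analysed here. Reference promoter and miRNA sequences were not used.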

Additional observations from a re-analysis of the deposited data

How the results depend on the processing

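No paired analysis was possible because each group is 1 library and the result comes from no test. Removing doublets by Scrublet at 0.8% per 1000 barcodes, TMM factors, leaving out shared barcodes and leaving out members that met the neutrophil rule kept every share, CD3-negative fraction and count of genes they were run on within its limits. The hydrogel library had the highest member share under every rule tried, by values given here without intervals. In the order untreated, hydrogel and CO hydrogel where 3 values are given, shares of kept cells were 0.242%, 1.52% and 0.710% with at least 2 cytotoxic UMIs, 0.0705%, 0.652% and 0.499% with the rule read after thinning, and 0.184%, 1.31% and 0.590% for members with Nkg7 or Ccl5. They moved to 0.540% untreated and 2.11% hydrogel under the stricter filter, to 1.25% hydrogel and 0.704% CO hydrogel with at least 3 T genes, and to 2.68% and 1.51% without the excluded genes. The CD3-negative fraction was 65.5%, 68.3% and 55.7% with 2 cytotoxic UMIs, 28.1%, 43.0% and 16.2% with 3 T genes, and 86.4%, 79.3% and 68.2% with Nkg7 or Ccl5. Counts of genes at least 2-fold higher and lower depended on the minimum: for CO hydrogel to hydrogel they were 249 and 510 at 20 UMIs, 17 and 44 at 200 UMIs and 2057 and 1178 with no minimum, for hydrogel to untreated 854 and 192, 39 and 7, and 1704 and 1456, and for CO hydrogel to untreated 367 and 153, 13 and 11, and 2208 and 1892. Genes higher in the CO hydrogel library numbered 54 against hydrogel and 56 against untreated with 3 T genes, and 54 and 54 with Nkg7 or Ccl5. Without the excluded genes they were 201 against hydrogel and 300 against untreated, with 87 lower than untreated, and for hydrogel to untreated 601 higher and 97 lower. The mean of per-cell CPM gave 65 genes lower in hydrogel than in untreated members. Single genes changed direction in CD3-positive members alone for CO hydrogel to hydrogel (Ccl1 2.83 on 8 against 2 UMIs, RT1-Da -0.80, RT1-Ba -0.43) and CO hydrogel to untreated (Gbp5 0.58). Others did so in CD3-negative members alone for hydrogel to untreated (Tmem156 0.23, Fam177a1 0.23) and CO hydrogel to untreated (Cited2 0.056), and RT1-Da without the top cells (-0.11). The cause was not tested. The alternatives on Nkg7 or Ccl5, shared barcodes, neutrophil-rule members, excluded genes, CD3 groups, top cells and lists without the rule's genes were chosen after seeing the data. With 44 untreated members, a gene at 0 there could still be at 12.3 CPM, the level of 3 counts.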
